A study of Mus musculus with 48 samples.

Results

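The dentate gyrus of 7 mice of an amyloid cross that express Fmn2 was compared with the dentate gyrus of 5 wild-type mice, so that 12 of the 46 mice of the series enter the main comparison. The study crossed APPPS1-21 mice, which carry human transgenes for amyloid production, mutated APP among them, driven by the neuronal Thy1 promoter, with mice lacking the formin Fmn2, and sequenced RNA from the dentate gyrus at 3 months of age on a C57BL/6J background. They are the libraries of that cross whose title carries the letter W, hereafter W mice 1 to 7, and were chosen by this letter together with their Fmn2 level. The wild-type mice (Fmn2+/+, no transgene) come from a separate experiment on Fmn2 knockout mice of the same age, so that amyloid and experiment coincide and cannot be told apart in any value of this comparison. The genotype field reads FMN2-/-_APP for the W libraries and FMN2 +/+ APP for those with the letter K, which goes against both the letters and the Fmn2 levels, so the mice are called by their title letter.

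Fmn2 (chr1:174501825-174822729 of mm10, gene ENSMUSG00000028354) encodes a formin that nucleates actin filaments, and its level chose the members, so it is given without a test. Levels are given as CPM, read counts per 1000000 counted reads after TMM normalization of library sizes. The wild-type mice had 107.03, 106.1, 108, 92.1 and 95.7 CPM and the W mice ranged from 82.7 through a median of 93.4 to 101.5 CPM. For the cross libraries with the title letter K the range was 19.1 to 23.5 CPM, and for the 3-month Fmn2-/- mice it was 22.4 to 27.6 CPM. The lowest W mouse thus lay at 82.7 CPM and the highest K mouse at 23.5 CPM, with no W or K mouse between these values. Catspere1, a pseudogene on the same chromosome whose reads mark the knockout haplotype in this series, was at 2.61 CPM in W mouse 1 and at most 0.0884 CPM in the other W mice, against 5.04 to 7.28 CPM in the 3-month Fmn2-/- mice.

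The dentate gyrus relays input from the entorhinal cortex to the CA3 region through its granule cells, whose mossy fibre terminals are rich in synaptic vesicles and neuropeptides, and new granule cells are born in it throughout life. In amyloid mice aggregated amyloid-β is taken up by microglia, the resident macrophages of the brain, which sense lipids and amyloid through the receptor Trem2 and its signalling partner Tyrobp and then switch on a set of plaque-associated genes. Complement C1q, made mainly by microglia, tags synapses for removal, and astrocytes around plaques raise Gfap and other reactive genes.

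Between 19554931 and 34083622 reads per wild-type mouse and between 22079163 and 41715344 per W mouse were counted on genes. The 2 sequencing runs of W mouse 7 were summed. By their titles all wild-type libraries and those of W mice 1, 2 and 3 were run on lane 5, those of W mice 4, 5 and 6 on lane 6 and the 2 runs of W mouse 7 on lanes 4 and 7. The titles give a lane number and not the sequencing run, so lane 5 need not be the same lane in both experiments. Mitochondrially encoded genes took 7.61 to 9.22% of the reads in wild-type mice and 4.57 to 6.00% in W mice. W mice 1, 3, 6 and 7 had Xist reads and at most 14 reads of Y-linked genes, whereas W mice 2, 4 and 5 and all 5 wild-type mice had Y-linked reads, so that 4 of the 7 W mice and none of the wild-type mice are female by these genes, although the study's methods name male mice. Across 16554 genes the fold change correlated with exon length (Spearman's rho -0.183) and with GC content (rho 0.232), given as descriptions over genes, which are not independent. The granule cell markers Prox1 (wild type 193 to 252, W 182 to 369.6 CPM) and Calb1 (226 to 321 and 313 to 394 CPM) were abundant in every library.

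Levels of the transgene-related genes served to check the amyloid label. App, whose count takes mouse and, where it aligns, human reads, was at 1807, 1521, 1638, 1514 and 1557 CPM in the wild-type mice and at 1411, 1750.2, 1661, 1814, 1556, 1329 and 1467 CPM in W mice 1 to 7 (log2 fold change -0.034, standard error 0.085, edgeR adjusted p = 0.779). The difference did not pass the test, and W mice 1, 6 and 7 lay below every wild-type mouse. Thy1, whose regulatory sequence drives the transgenes, was at 826, 790.5, 822, 796 and 859 CPM in wild-type mice and at 775, 1572, 1141, 1651, 1133, 937 and 845 CPM in W mice 1 to 7 (log2 fold change 0.49, standard error 0.17, edgeR adjusted p = 0.0386). Its fold change stood just under the threshold of 0.5, and without W mouse 1, 6 or 7 it was 0.57, 0.54 and 0.55, past it. It was 0.83 (adjusted p = 0.000112) without the 4 mice with Xist reads, 0.83 (adjusted p = 0.000576) with sex as a term and 0.57 (adjusted p = 0.0393) with the replicate block, all from edgeR. No wild-type mouse had Xist reads, so the first 2 of these fits both compare the W mice with Y-linked reads with wild type. They are not separate checks. The replicate block adds the replicate number as a term and keeps only numbers found in every group compared. Against wild type it therefore leaves out W mice 6 and 7. W mice 2 and 4 had the highest Thy1 levels, W mouse 1 lay below every wild-type mouse and W mouse 7 within their range. The counts thus do not show the transgenes in every W mouse, and for W mice 1 and 7 the amyloid label rests on the labels alone. In the cortex-titled libraries of the series, which hold 6 APP and 6 wild-type mice of 4 months and are titled PFC although their tissue label also reads dentate gyrus (Prox1 11.3 to 20.6 CPM in the wild-type mice), App and Thy1 were higher in the APP mice by 0.61 and 1.48 on the log2 scale, both past the threshold. In the W mice the fold changes of both genes were smaller than these values, a difference between titled tissues, ages and experiments that was not tested. The deposited counts do not separate human from mouse transcripts.

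**Figure D1:**
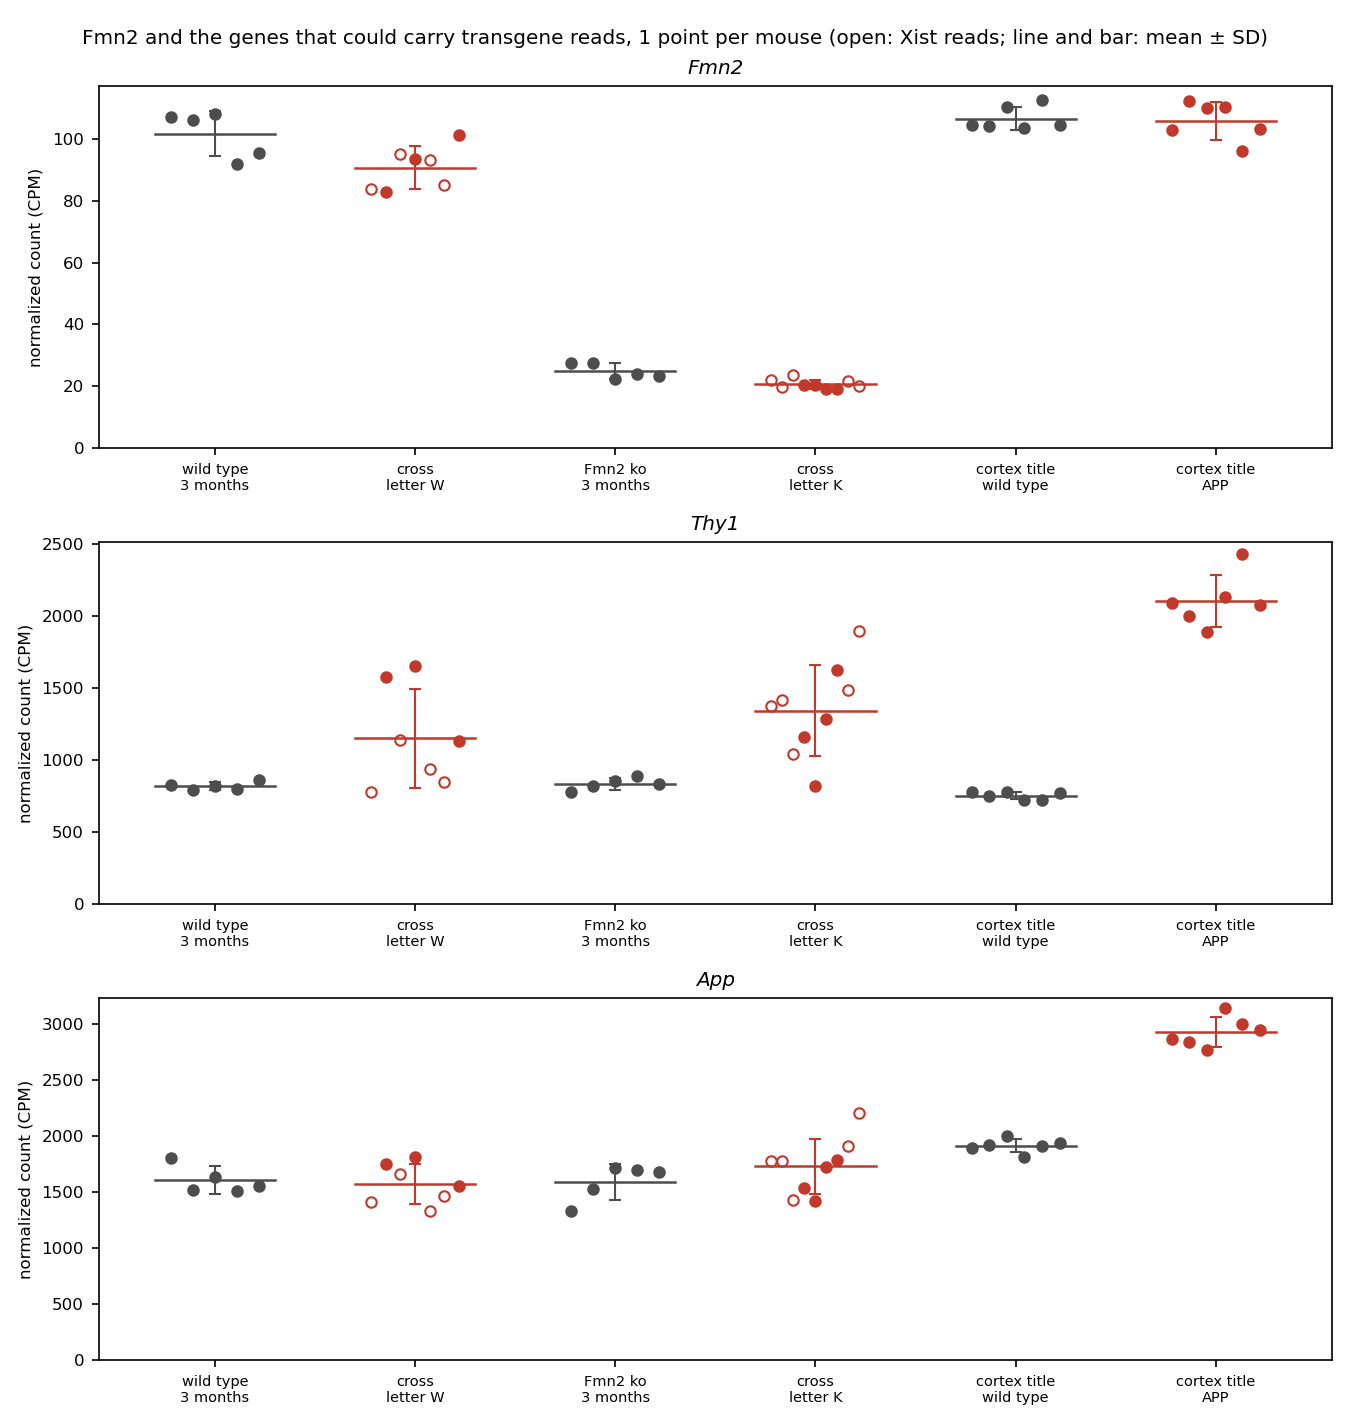
Levels of Fmn2, Thy1 and App (CPM, y axis) in each mouse of 6 groups (x axis), with open points for mice with Xist reads and a line with bars for the mean ± SD; CPM were normalized within each comparison. The 7 W mice lie between 82.7 and 101.5 CPM for Fmn2, above all K and Fmn2-/- mice, and spread from 775 to 1651 CPM for Thy1.

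The question of the comparison is which genes differ in the dentate gyrus when the amyloid label is present and Fmn2 is expressed. A gene was called where edgeR gave an adjusted p below 0.05 and the log2 fold change reached 0.5 in either direction. Of 16592 genes tested 2767 (16.7%) were called, 1544 (9.31%) higher and 1223 (7.37%) lower in the W mice, and at an adjusted p under 0.05 alone there were 6367. For 3581 genes (21.6%) the 2 groups of mice did not overlap. The median log2 fold change over all genes was 0.03. Among the libraries of lane 5 alone 2898 genes were called, 1545 higher and 1353 lower. With so large a share of genes called, the count of any group of genes is to be read against these shares, also where they are not repeated. Fewer cells of a type and less RNA per cell cannot be told apart in tissue RNA.

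Calls of higher expression were most frequent, as a share of a list, among ribosomal proteins (40 of 78), neurogenesis genes (8 of 17), complement and innate immune receptors (8 of 21), chaperones (8 of 22), CA field markers (5 of 17) and homeostatic microglia genes (5 of 19). Calls of lower expression were most frequent among mitochondrially encoded genes (7 of 8), oligodendrocyte genes (8 of 16), immediate early genes (11 of 23), synaptic vesicle genes (9 of 25) and interneuron genes (5 of 15). Without the 4 W mice with Xist reads the calls were 8 higher and 2 lower for plaque-associated microglia, 7 and 0 for homeostatic microglia, 6 and 2 for neurogenesis, 1 and 10 for synaptic vesicles, 0 and 11 for immediate early genes, and 42 and 2 for ribosomal proteins. No member of the lists of oligodendrocyte precursors (0 of 12) and glutamate receptors (0 of 22) was called.

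**Figure D2:**
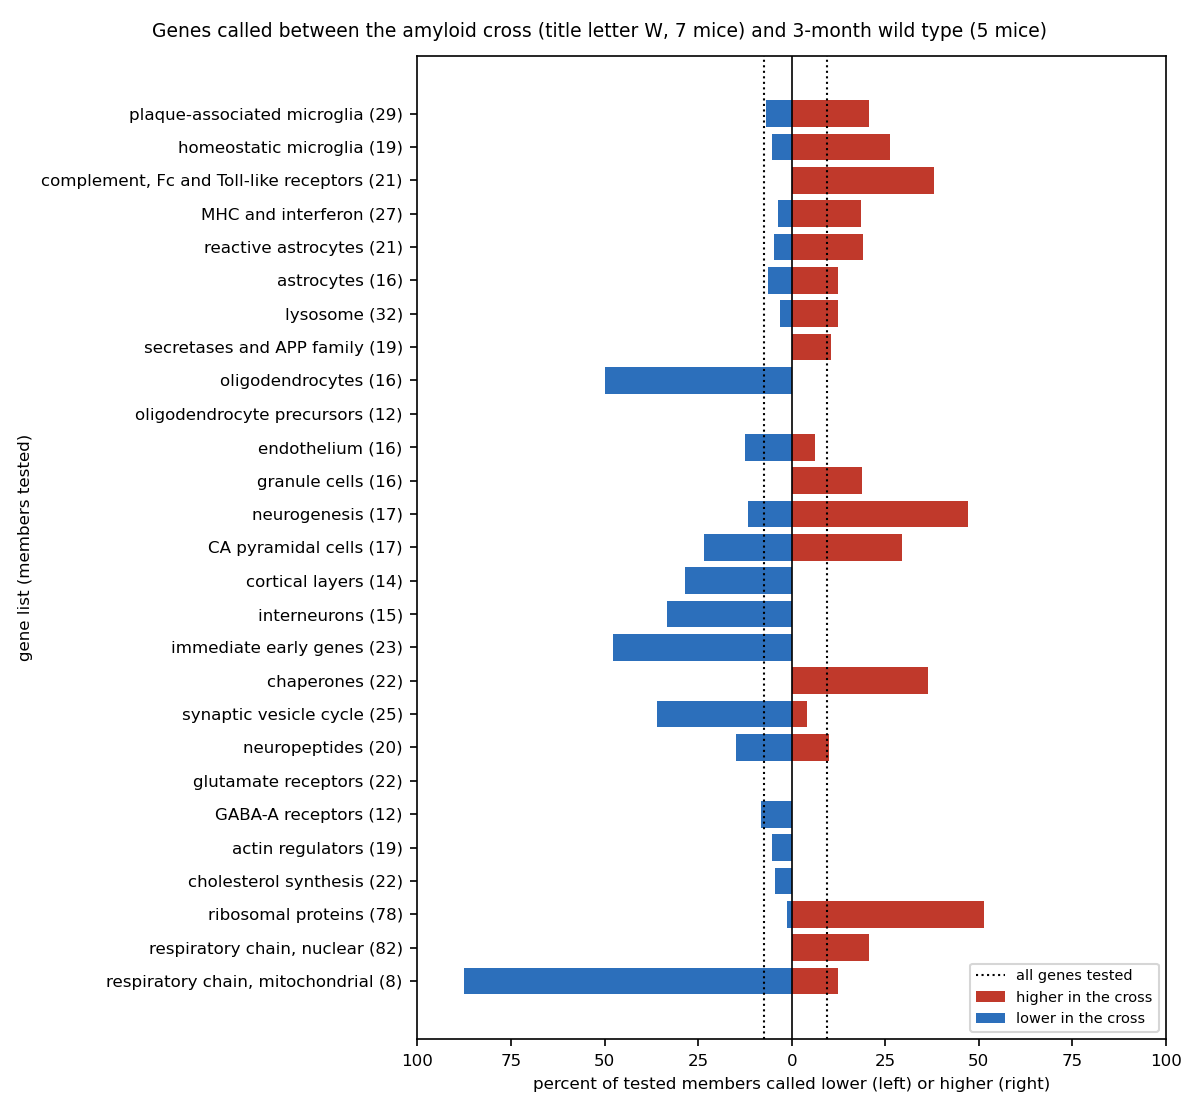
Percent of the tested members of each gene list called lower (to the left) or higher (to the right) in W mice against wild type, with the list on the y axis and dotted lines at 7.37% and 9.31%, the shares over all genes tested. Ribosomal, neurogenesis and complement lists extend farthest to the right among lists of over 10 genes, and immediate early, oligodendrocyte and synaptic vesicle lists extend to the left.

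Microglial genes rose in part, and the receptor complex that senses amyloid was among them. Trem2 and its adaptor Tyrobp were higher in every W mouse than in any wild-type mouse, as were the lysosomal and endosomal genes Cd63, Ctsd and Hexa. Of the 29 tested members of the list of plaque-associated microglia genes 6 rose, 2 fell and 21 did not pass, with a median log2 fold change of 0.22 (0.13 without W mouse 2). For 9 of the 29 the groups did not overlap. Over all genes 9.31% rose and 21.6% had groups that did not overlap.

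Trem2 was at 7.78, 9.38, 8.54, 9.47 and 7.50 CPM in the wild-type mice and ranged from 11.4 through a median of 13.2 to 26.7 CPM in the W mice (log2 fold change 0.88, standard error 0.19, edgeR adjusted p = 0.00266). Tyrobp was at 7.20, 9.005, 8.61, 8.94 and 8.88 CPM in wild-type mice and ranged from 11.73 through a median of 16.8 to 36.9 CPM in W mice (log2 fold change 1.202, standard error 0.25, edgeR adjusted p = 0.00243). W mouse 2 had the highest level of both genes, and even the lowest W mouse exceeded the highest wild-type mouse. Cd63, a tetraspanin of endosomes and lysosomes, was at 11.72, 14.9, 14.1, 16.0 and 14.9 CPM in wild-type mice and ranged from 22.6 through a median of 33.7 to 44.6 CPM in W mice (log2 fold change 1.28, standard error 0.14, edgeR adjusted p = 2.3e-05), a 2.42-fold difference with no overlap. Ctsd, the lysosomal protease cathepsin D, rose from between 126 and 144 CPM to between 161 and 263 CPM (log2 fold change 0.60, standard error 0.10, edgeR adjusted p = 0.000466), and Hexa, a subunit of β-hexosaminidase, from between 41.4 and 45.3 CPM to between 51.6 and 84.9 CPM (log2 fold change 0.61, standard error 0.096, edgeR adjusted p = 0.000226). After a correction for exon length and GC content these last 2 values were 0.44 and 0.47, under the fold threshold. Ccl6, a chemokine, was below 1 CPM in wild-type mice (0.438 to 0.736) and ranged from 1.04 through a median of 1.90 to 9.42 CPM in W mice (log2 fold change 2.18, standard error 0.55, edgeR adjusted p = 0.00729).

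Other members of the plaque-associated list went the opposite way or were hardly detected. Igf1, a growth factor, fell from between 11.75 and 17.2 CPM to between 6.80 and 11.2 CPM (log2 fold change -0.69, standard error 0.13, edgeR adjusted p = 0.000739; -0.47 after the length and GC correction). Lpl, lipoprotein lipase, fell from between 162 and 203 CPM to between 47.7 and 139 CPM (log2 fold change -1.19, standard error 0.22, edgeR adjusted p = 0.00137); it is also expressed by hippocampal neurons. Apoe, the lipid carrier, was at 1169.7 to 1489 CPM in wild-type and 1245 to 1611 CPM in W mice (log2 fold change 0.047, standard error 0.08, edgeR adjusted p = 0.673). The strongest plaque-associated genes, Cst7, Itgax and Clec7a, were too low to be tested. Cst7 stood at 0.0526, 0, 0.123, 0.307 and 0.0335 CPM in the wild-type mice and at 0, 8.27, 0.0815, 1.17, 0.201, 0.379 and 0.112 CPM in W mice 1 to 7, that is above 1 CPM in W mice 2 and 4 and at most 0.379 CPM in the other 5. Itgax reached 2.87 CPM in W mouse 2 and at most 0.376 CPM in the other W mice, within the wild-type range of 0 to 0.578 CPM. Clec7a ranged from 0.144 through a median of 0.245 to 1.06 CPM in W mice, with W mouse 2 highest. W mice 2 and 4 were also those with the highest Thy1 and Tyrobp levels. The same list had 12 called higher of 34 tested in K mice against Fmn2-/- mice and 23 of 34 in the cortex-titled APP mice, where Cst7 was higher by 7.81 on the log2 scale.

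Promoter sequence of the called plaque-associated genes is shown because 6 of these genes rose and because the macrophage factor PU.1 binds sites with the core GAGGAAG. The 250 bases before the transcription start, from RefSeq on GRCm38.p6, were searched on both strands (reverse complement CTTCCTC). Of the 8 called genes 6 had a promoter in the table, and 3 of the 6 held the core, with 12.8% of 11988 tested genes and 10.6% of 32851 promoters of the table holding it too. Capitals mark the core, each sequence being given 5′ to 3′ on the strand of its gene.
Trem2, chr17:48346151-48346400 (+ strand): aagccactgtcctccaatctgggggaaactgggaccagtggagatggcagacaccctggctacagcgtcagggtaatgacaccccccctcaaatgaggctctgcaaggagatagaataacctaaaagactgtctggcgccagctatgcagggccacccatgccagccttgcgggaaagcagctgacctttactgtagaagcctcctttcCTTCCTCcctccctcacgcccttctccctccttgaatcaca
Cd63, chr10:128909095-128909344 (+ strand): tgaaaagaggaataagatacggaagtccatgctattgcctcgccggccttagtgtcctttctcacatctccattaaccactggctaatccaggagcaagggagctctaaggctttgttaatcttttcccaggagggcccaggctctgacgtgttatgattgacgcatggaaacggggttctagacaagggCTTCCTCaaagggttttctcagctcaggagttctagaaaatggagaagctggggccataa
Igf1, chr10:87860861-87861110 (+ strand): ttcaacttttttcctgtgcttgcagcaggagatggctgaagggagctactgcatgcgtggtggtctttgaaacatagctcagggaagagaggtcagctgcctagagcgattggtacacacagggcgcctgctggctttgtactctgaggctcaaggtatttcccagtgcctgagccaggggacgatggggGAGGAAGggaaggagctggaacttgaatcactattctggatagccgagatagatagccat
The core lay 41 bases before the start in Trem2 and 60 bases before it in Cd63, both on the opposite strand, and 60 bases before it in Igf1. The first 2 genes rose and Igf1 fell, so the 3 matches do not share a direction. A match of these letters is a description and not a shown binding site. Tyrobp and Lpl had no entry.

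Homeostatic microglia genes, which mark microglia in the undisturbed brain, were higher more often than lower: 5 of 19 rose and 1 fell (median log2 fold change 0.35, or 0.14 without W mouse 4). Over all genes 9.31% rose. The groups did not overlap for 6 of the 19, against 21.6% of all genes. Tmem119 was at 12.1, 14.6, 15.8, 15.1 and 15.9 CPM in wild-type mice and ranged from 22.9 through a median of 26.2 to 29.6 CPM in W mice (log2 fold change 0.84, standard error 0.083, edgeR adjusted p = 8.66e-06). Fcrls, an Fc receptor-like protein, was at 2.42, 2.84, 2.16, 4.25 and 2.48 CPM and ranged from 5.51 through a median of 10.1 to 21.7 CPM (log2 fold change 2.01, standard error 0.31, edgeR adjusted p = 0.000298), a 4.02-fold difference. All 7 W mice exceeded all 5 wild-type mice for both genes. Siglech, a lectin of microglia, rose from between 9.38 and 12.8 CPM to between 11.9 and 25.8 CPM (log2 fold change 0.72, edgeR adjusted p = 0.00265). Olfml3 rose by 0.82 (adjusted p = 0.0214 from edgeR), with overlap between the groups, and lost its call without wild-type mouse 1 (adjusted p = 0.0535). It also lost the call with no filter on low counts (edgeR adjusted p = 0.0684) and with sex as a term (0.0855), and kept it without the mice with Xist reads (0.0130). P2ry12, the purinergic receptor of resting microglia, fell from between 57.98 and 70.6 CPM to between 28.98 and 54.7 CPM (log2 fold change -0.58, standard error 0.13, edgeR adjusted p = 0.00314); the value was -0.50 without W mouse 1, which had the lowest level, and -0.39 without the 4 mice with Xist reads, under the fold threshold. Cx3cr1, the fractalkine receptor, was at 34.4 to 42.1 and 26.2 to 40.6 CPM (log2 fold change -0.088, standard error 0.10, edgeR adjusted p = 0.516). The list thus held members that rose by up to 2.01 and a defining member that fell.

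The genes of complement C1q, of Fc receptors and of Toll-like receptors gave the immune group with the highest share of calls. Of 21 tested members 8 rose and none fell, the median log2 fold change was 0.61, and the summed level of the list was 163 to 183 CPM in wild-type and 216 to 364 CPM in W mice, with no overlap. Over all genes 9.31% were called higher.

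C1qa, C1qb and C1qc encode the 3 chains of C1q, the molecule that starts the classical complement pathway. C1qa was at 29.3, 29.9, 26.6, 30.2 and 27.5 CPM in wild-type mice and ranged from 37.5 through a median of 41.8 to 70.1 CPM in W mice (log2 fold change 0.69, standard error 0.14, edgeR adjusted p = 0.00170). C1qb was at 26.9, 29.7, 25.9, 27.7 and 28.8 CPM and ranged from 42.8 through a median of 50.1 to 81.0 CPM (log2 fold change 0.99, standard error 0.13, edgeR adjusted p = 8.98e-05). C1qc was at 20.1, 20.2, 19.9, 22.9 and 20.97 CPM and ranged from 28.03 through a median of 33.8 to 49.5 CPM (log2 fold change 0.81, standard error 0.13, edgeR adjusted p = 0.000228). All 3 chains were higher in each W mouse than in any wild-type mouse, and W mouse 2 had the highest level of each. Ly86, which binds the Toll-like receptor relative Cd180, rose from between 7.13 and 8.64 CPM to between 10.5 and 16.8 CPM (log2 fold change 0.70, standard error 0.12, edgeR adjusted p = 0.00051), and the IgG receptor gene Fcgr3 from between 8.20 and 9.88 CPM to between 11.5 and 20.03 CPM (log2 fold change 0.64, adjusted p = 0.00213). Calls for the remaining 3 genes of low level were less firm. Cd14, a co-receptor for bacterial lipopolysaccharide, rose by 0.69 (adjusted p = 0.0177 from edgeR) and had an adjusted p of 0.0632 when all libraries were drawn down to the smallest. Tlr7, a sensor of single-stranded RNA, rose by 0.67 (adjusted p = 0.0181), and its adjusted p was 0.0522 without wild-type mouse 1 and 0.147 among the libraries of lane 5. C4a rose by 1.13 (adjusted p = 0.0136) and by 0.69 (adjusted p = 0.144) without the mice with Xist reads; it shares reads with its near-identical paralog C4b, so its count is uncertain. Without those 4 mice 8 of 21 members of the list were still called higher.

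Genes of antigen presentation and the interferon response rose in part: 5 of 27 tested members were higher and 1 lower, where 9.31% of all genes were higher. The median log2 fold change was 0.41, or 0.25 without W mouse 6 and 0.077 with the replicate block, which leaves out W mouse 6 too. Ifi27, an interferon-induced mitochondrial protein, was at 17.2, 16.1, 17.1, 18.0 and 18.96 CPM in wild-type mice and ranged from 29.4 through a median of 34.7 to 45.8 CPM in W mice (log2 fold change 1.03, standard error 0.11, edgeR adjusted p = 1.54e-05), with no overlap. Irf9, which carries the interferon signal to DNA, rose from between 8.52 and 11.4 CPM to between 12.2 and 20.3 CPM (log2 fold change 0.69, standard error 0.15, edgeR adjusted p = 0.00259). Isg15, a ubiquitin-like modifier, was low, at 0.679 to 0.938 CPM in wild-type and 0.897 to 3.22 CPM in W mice (log2 fold change 1.25, standard error 0.29, edgeR adjusted p = 0.00371). Psmb8, a subunit of the immunoproteasome, rose by 0.73 (adjusted p = 0.0125 from edgeR) and Bst2, tetherin, by 1.55 (adjusted p = 0.00789). Xaf1, an interferon-induced gene linked to apoptosis, fell from 17.0, 15.3, 20.8, 20.6 and 15.7 CPM to between 2.16 and 10.9 CPM, with a median of 6.11 (log2 fold change -1.45, standard error 0.28, edgeR adjusted p = 0.00141). Within the W group the mice with Xist reads weighed on this list: without them Irf9 stood at 0.40, and the median of the list was 0.13 with 4 members called higher and 1 lower. Bst2 stood at 1.32 both without these mice and with sex as a term. It was called in the first fit (edgeR adjusted p = 0.0268) and not in the second (edgeR adjusted p = 0.0570).

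Astrocytic genes moved in both directions. Of 21 reactive astrocyte genes 4 rose and 1 fell, where 9.31% of all genes rose and 7.37% fell. Their median was 0.39, or 0.21 without W mouse 6 and 0.20 without the mice with Xist reads. It was 0.13 with the replicate block, which leaves out W mice 6 and 7. Of 16 general astrocyte markers 2 rose and 1 fell (median 0.17), a share of calls near the 16.7% of all genes. Gfap, the intermediate filament protein of reactive astrocytes, was at 394, 379, 283, 457 and 312 CPM in wild-type mice and ranged from 323 through a median of 524 to 748 CPM in W mice (log2 fold change 0.46, standard error 0.19, edgeR adjusted p = 0.0759); it did not pass and the groups overlapped. It was called at 0.55 (adjusted p = 0.0266) without W mouse 7, at 0.66 (adjusted p = 0.0461) without the mice with Xist reads, at 0.66 (adjusted p = 0.0453) with sex as a term and at 0.51 (adjusted p = 0.00119) with the replicate block, all from edgeR. The fits without the mice with Xist reads and with sex as a term rest on the same W mice and are not separate checks. Serpina3n, a secreted protease inhibitor of reactive astrocytes, was at 325, 352, 328, 388 and 399.8 CPM in wild-type mice and at 438, 244, 63.2, 261, 65.3, 76.4 and 57.7 CPM in W mice 1 to 7 (log2 fold change -1.06, standard error 0.53, edgeR adjusted p = 0.141). Only W mouse 1 exceeded the wild-type range for it, and without this mouse the value was -1.49 (adjusted p = 0.0247). Cd109, a membrane protein that restrains TGF-β signalling, fell from 40.9, 30.2, 32.1, 42.4 and 36.1 CPM to between 6.04 and 14.4 CPM, with a median of 8.14 (log2 fold change -2.06, standard error 0.21, edgeR adjusted p = 1.54e-05), and was among the 8 deepest falls described below. Cd44, a hyaluronan receptor, rose by 1.07 (adjusted p = 0.0203 from edgeR), and its adjusted p was 0.0509, 0.052 and 0.0526 without wild-type mouse 1, 2 or 3. It also lost the call with no filter on low counts (edgeR adjusted p = 0.0581) and with sex as a term (0.0768), and kept it without the mice with Xist reads (0.00133).

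Among the general astrocyte markers the gap junction gene Gjb6 rose from between 47.4 and 54.3 CPM to between 78.4 and 98.7 CPM (log2 fold change 0.79, standard error 0.072, edgeR adjusted p = 5.39e-06) and the growth factor receptor gene Fgfr3 from between 73.0 and 88.3 CPM to between 114 and 147 CPM (log2 fold change 0.68, standard error 0.07, edgeR adjusted p = 1.06e-05). Kcnj10, the inward rectifier Kir4.1 that clears potassium, fell from 256, 251, 293, 256 and 253 CPM to between 146 and 251 CPM, with a median of 151 (log2 fold change -0.65, standard error 0.12, edgeR adjusted p = 0.000868); W mouse 7 lay with the lowest wild-type mouse and the other 6 W mice stood at or under 164 CPM. Summed over its 16 genes the astrocyte list was at 7605 to 8001 CPM in wild-type and 7712 to 8758 CPM in W mice.

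Lysosomal genes and the secretases that cut APP were for the most part not called. Of 32 lysosomal genes 4 rose and 1 fell (median 0.16), a share of calls near the 16.7% of all genes. After the length and GC correction 2 rose and 1 fell. Besides Hexa and Ctsd described with microglia, Ppt1, palmitoyl-protein thioesterase 1, fell from between 180.1 and 198 CPM to between 109 and 147 CPM (log2 fold change -0.62, standard error 0.07, edgeR adjusted p = 2.26e-05) with no overlap. Of 19 genes of the APP family and its secretases 2 rose, near the 9.31% of all genes that rose. Bace2, the relative of the β-secretase gene, was at 1.21, 1.02, 1.94, 1.01 and 1.64 CPM in wild-type mice and at 11.01, 4.25, 13.01, 6.85, 8.43, 2.35 and 3.04 CPM in W mice 1 to 7 (log2 fold change 2.33, standard error 0.44, edgeR adjusted p = 0.00115). Psenen, a γ-secretase subunit, rose from between 2.89 and 3.89 CPM to between 4.40 and 7.95 CPM (log2 fold change 0.76, standard error 0.16, edgeR adjusted p = 0.00224). For both genes the lowest W mouse lay above the highest wild-type mouse, and the Bace2 levels of the W mice spread widely, from 2.35 to 13.01 CPM.

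**Figure D3:**
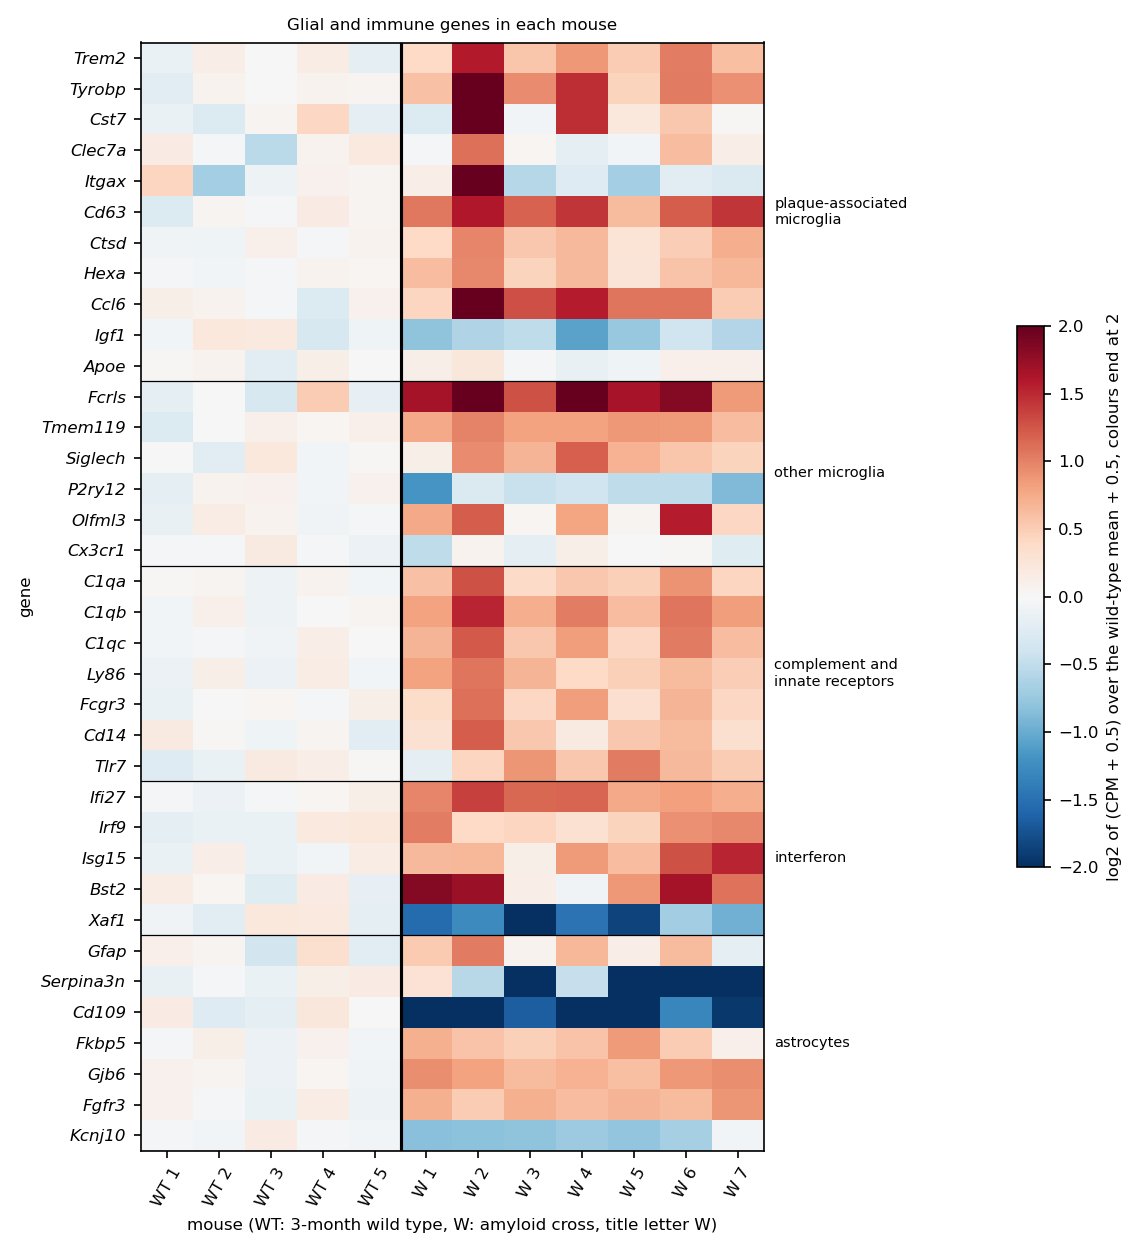
Heat map of glial and immune genes (rows) in each of the 5 wild-type and 7 W mice (columns); colour gives log2 of (CPM + 0.5) over (wild-type mean CPM + 0.5). Trem2, Tyrobp, Cd63 and the C1q genes are higher in every W mouse, Cd109 is lower in every W mouse, and Cst7 and Itgax stand out in W mouse 2 with 8.27 and 2.87 CPM.

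Genes of synaptic vesicles and their release fell in part. Of 25 tested members 9 fell, 1 rose and 15 did not pass (median log2 fold change -0.38), where 7.37% of all genes fell. For 9 members the groups did not overlap, against 21.6% of all genes. The summed level was 17509.5 to 21021 CPM in wild-type and 11243 to 15492 CPM in W mice, of which Snap25 alone took a mean of 4553 and 2086 CPM. In K mice against Fmn2-/- mice, which share no library with this comparison, 8 of 25 fell and 1 rose.

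Snap25, a SNARE protein that drives vesicle fusion, was at 5089, 4415, 4985, 3725 and 4552 CPM in wild-type mice and ranged from 1700.0 through a median of 2056 to 2581 CPM in W mice (log2 fold change -1.13, standard error 0.10, edgeR adjusted p = 4.86e-06). Pclo, the active zone scaffold piccolo, was at 488, 421, 444, 363 and 415 CPM and ranged from 149.9 through a median of 185 to 200.1 CPM (log2 fold change -1.26, standard error 0.082, edgeR adjusted p = 9.24e-07). The groups were far apart for both, with the highest W mouse at 2581 CPM of Snap25 and the lowest wild-type mouse at 3725. Syt1, the calcium sensor of release, fell from between 1855 and 2390.1 CPM to between 935 and 1378 CPM (log2 fold change -0.91, standard error 0.091, edgeR adjusted p = 9.79e-06), Syn1, which tethers vesicles to actin, fell by 0.86 (adjusted p = 4.44e-06) and Rims1, which docks vesicles at the active zone, fell by 0.76 (adjusted p = 6.69e-06). Synpr, synaptoporin, a vesicle protein enriched in mossy fibres, was the member that rose, from between 216 and 231 CPM to between 285 and 439.6 CPM (log2 fold change 0.73, standard error 0.12, edgeR adjusted p = 0.000259). Neurofilament heavy chain, Nefh, a structural protein of large axons, fell from between 57.8 and 82.3 CPM to between 30.0 and 44.7 CPM (log2 fold change -0.95, standard error 0.10, edgeR adjusted p = 1.8e-05).

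Neuropeptide genes and their processing enzymes moved both ways, with 2 of 20 higher and 3 lower (median 0.15, or -0.17 without W mouse 7 and 0.034 without wild-type mouse 4). Chgb, a granin of dense-core vesicles, fell from 1389, 1109, 1079.8, 1179 and 1238 CPM to between 335 and 567.8 CPM, with a median of 423 (log2 fold change -1.42, standard error 0.13, edgeR adjusted p = 4.44e-06). Pcsk2, the prohormone convertase, fell from between 454 and 556 CPM to between 198 and 249 CPM (log2 fold change -1.08, standard error 0.075, edgeR adjusted p = 9.24e-07). Cck, a peptide of interneurons and pyramidal cells, fell by 0.69 (adjusted p = 0.00125 from edgeR) and stood at -0.49 without the mice with Xist reads, just under the threshold. Pdyn, the precursor of dynorphin in granule cells, rose from between 23.1 and 33.7 CPM to between 37.4 and 60.1 CPM (log2 fold change 0.79, standard error 0.11, edgeR adjusted p = 0.000119) with no overlap.

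Receptor genes were rarely called. None of 22 glutamate receptor genes was called (median -0.16), while 1 was called lower with DESeq2 and without wild-type mouse 2 or W mouse 5, 6 or 7, and 1 was called higher and 3 lower without the mice with Xist reads. Of 12 GABA-A receptor genes Gabrb2, the β2 subunit, fell by 0.52 (adjusted p = 0.00333 from edgeR); the value was -0.47, -0.48 and -0.44 without wild-type mouse 1, 2 or 3, and 3 members were called lower without wild-type mouse 4 or W mouse 2. Of 19 partners of formins in actin assembly only Fmn1, a formin related to Fmn2, was called; it fell from 31.8, 24.4, 25.7, 19.7 and 20.9 CPM to between 6.77 and 8.84 CPM, with a median of 7.87 (log2 fold change -1.63, standard error 0.11, edgeR adjusted p = 9.24e-07). Cfl1, cofilin, which severs actin filaments, was at 572 to 648 and 436 to 535 CPM (log2 fold change -0.37, standard error 0.069, edgeR adjusted p = 0.000817), under the fold threshold.

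Immediate early genes, transcribed within minutes of neuronal activity, were called only lower in the W mice. Of 23 members 11 fell (median -0.50, or -0.27 with 10 lower without wild-type mouse 3), where 7.37% of all genes fell. The groups did not overlap for 4 members, a smaller share than the 21.6% of all genes. The wild-type mice differed among themselves more than the W mice did for these genes, wild-type mouse 3 being highest and wild-type mouse 5 lowest for the genes named here. Arc, which remodels synapses, was at 158, 141, 227, 135 and 78.4 CPM in wild-type mice and ranged from 33.0 through a median of 52.2 to 77.3 CPM in W mice (log2 fold change -1.47, standard error 0.24, edgeR adjusted p = 0.000546). Npas4, an activity-dependent transcription factor, was at 22.4, 11.3, 30.9, 20.5 and 6.57 CPM and ranged from 2.61 through a median of 3.88 to 9.29 CPM (log2 fold change -1.99, standard error 0.39, edgeR adjusted p = 0.00175). The highest W mouse of Arc lay just under the lowest wild-type mouse, whereas W mouse 7 overlapped the wild type for Npas4. Dusp1, a phosphatase that ends MAP kinase signalling, fell by 1.44 (adjusted p = 0.000398), the orphan receptor gene Nr4a1 fell by 1.24 (adjusted p = 0.000453) and the AP-1 gene Junb fell by 1.05 (adjusted p = 0.000959), all from edgeR. Egr1 fell from between 77.4 and 264 CPM to between 41.7 and 90.4 CPM (log2 fold change -1.32, standard error 0.28, edgeR adjusted p = 0.00307) and Egr2, at lower levels, fell by 2.35 (adjusted p = 0.00169). Fos was at 31.1, 26.05, 61.5, 20.7 and 10.99 CPM in wild-type mice and ranged from 4.38 through a median of 5.60 to 23.5 CPM in W mice (log2 fold change -1.78, standard error 0.51, edgeR adjusted p = 0.0169); without wild-type mouse 3 it stood at -1.34 (adjusted p = 0.0557). The time between handling and tissue collection in the 2 experiments is not given in the sources used here.

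Chaperones rose in part: 8 of 22 were higher and none lower (median 0.24), where 9.31% of all genes were higher. The groups did not overlap for 6 of the 22, against 21.6% of all genes. Sdf2l1, a component of the chaperone complex of the endoplasmic reticulum, was at 4.47, 5.25, 5.12, 7.06 and 6.47 CPM in wild-type mice and ranged from 14.4 through a median of 19.1 to 25.4 CPM in W mice (log2 fold change 1.72, standard error 0.16, edgeR adjusted p = 4.9e-06). Hspa5, the master chaperone BiP, was at 261, 275, 224, 301 and 306 CPM and ranged from 414 through a median of 591 to 624 CPM (log2 fold change 0.98, standard error 0.12, edgeR adjusted p = 3.97e-05). Both were higher in all W mice, and W mice 2, 4 and 5, which had Y-linked reads, held the 3 lowest Hspa5 values of the group. Pdia4, a protein disulfide isomerase, rose by 0.63 and the cytosolic co-chaperone Dnajb1 by 0.58 (edgeR adjusted p = 0.000779 and 0.000469). Without the 4 mice with Xist reads the list had 3 members called higher and 1 lower, with Pdia4 at 0.39, Dnajb1 at 0.38 and Hspa5 at 0.71. Without wild-type mouse 3, 5 members were called higher. In K mice against Fmn2-/- mice none of the 22 was called.

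Markers of granule cells, of neighbouring hippocampal fields and of the cortex moved in both directions. Of 16 granule cell genes 3 rose and none fell (median 0.23), a share of calls near the 16.7% of all genes, of which 9.31% rose. The summed level of the list was 1939.5 to 2354 CPM in wild-type and 1806 to 3056 CPM in W mice. C1ql2, a synaptic organizer secreted from mossy fibres, was at 26.1, 34.8, 33.1, 38.5 and 41.7 CPM in wild-type mice and ranged from 59.8 through a median of 99.6 to 126 CPM in W mice (log2 fold change 1.47, standard error 0.18, edgeR adjusted p = 7.44e-05), with no overlap. Trpc6, a cation channel, rose by 0.56 (adjusted p = 0.0108 from edgeR); the value was 0.50, short of the threshold before rounding, without wild-type mouse 1 and 0.49 without W mouse 6.

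Of 17 genes of the CA pyramidal fields 5 rose and 4 fell (median -0.021). Neurod6, a transcription factor of pyramidal neurons that is low in mature granule cells, was at 442, 375, 333, 419 and 418 CPM in wild-type mice and ranged from 61.4 through a median of 124 to 152 CPM in W mice (log2 fold change -1.90, standard error 0.21, edgeR adjusted p = 3.68e-05). The highest W mouse lay far under the lowest wild-type mouse. Nectin3, an adhesion protein of CA neurons, fell from between 71.3 and 93.9 CPM to between 26.2 and 59.9 CPM (log2 fold change -1.09, standard error 0.16, edgeR adjusted p = 0.000203) and Prkca, protein kinase C α, fell by 0.66 (adjusted p = 0.000894). In the opposite direction Fibcd1, a marker of CA1, rose from 7.73, 19.3, 12.5, 32.4 and 19.2 CPM to between 42.5 and 81.2 CPM, with a median of 56.8 (log2 fold change 1.71, standard error 0.32, edgeR adjusted p = 0.00134), and Spink8, also of CA1, from between 0.578 and 3.07 CPM to between 2.92 and 17.8 CPM (log2 fold change 2.24, standard error 0.49, edgeR adjusted p = 0.00338). Coch, a marker used for CA3, rose by 1.09 (adjusted p = 0.00264). Pyramidal markers thus did not share a direction.

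Cortical layer genes were lower where they were called, 4 of 14 falling and none rising (median -0.33, or -0.18 without wild-type mouse 3). Tbr1, shared by deep cortical layers and developing granule neurons, fell from between 55.5 and 83.4 CPM to between 25.1 and 48.7 CPM (log2 fold change -0.84, standard error 0.15, edgeR adjusted p = 0.000837). Among 10 thalamic genes 1 rose and 2 fell (median -0.10), and without W mouse 7, whose summed level of the list was 664 CPM against 217 to 285 CPM in the other W mice, none rose and 4 fell (median -0.47); Prkcd, protein kinase C δ, fell from between 38.1 and 47.1 CPM to between 10.4 and 40.0 CPM, with a median of 17.0 (log2 fold change -1.04, standard error 0.30, edgeR adjusted p = 0.0154), W mouse 7 lying within the wild-type range. Of 15 interneuron genes 5 fell and none rose (median -0.34). Reln, the extracellular matrix protein reelin, fell by 0.61 and the neuregulin receptor gene Erbb4 fell by 0.70 (edgeR adjusted p = 8.21e-05 and 0.000559); after the length and GC correction they stood at -0.43 and -0.48, under the threshold, and 2 members were called. Without wild-type mouse 5, 3 interneuron genes were called lower. The part of dissection in the neuronal and synaptic values was not tested.

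Genes of the neurogenic niche were higher more often than lower, 8 of 17 rising and 2 falling (median 0.39). Hes5, a Notch target of neural stem cells, was at 1.21, 1.98, 1.60, 1.58 and 1.94 CPM in wild-type mice and ranged from 3.91 through a median of 4.66 to 6.28 CPM in W mice (log2 fold change 1.59, standard error 0.17, edgeR adjusted p = 1.48e-05). Igfbpl1, a marker of newborn neurons, was at 1.05, 0.965, 0.740, 1.75 and 0.972 CPM and ranged from 2.49 through a median of 4.22 to 5.26 CPM (log2 fold change 1.90, standard error 0.25, edgeR adjusted p = 6.04e-05). All W mice exceeded all wild-type mice for both. Sox11, of immature neurons, rose from between 16.5 and 28.01 CPM to between 27.8 and 39.0 CPM (log2 fold change 0.61, standard error 0.12, edgeR adjusted p = 0.00114; 0.46 among the libraries of lane 5), and Eomes, of intermediate progenitors, from between 0.0526 and 0.351 CPM to between 0.400 and 1.35 CPM (log2 fold change 1.86, standard error 0.41, edgeR adjusted p = 0.00243), near the limit of detection. Eomes passed the filter on low counts through the W mice, the group in which it was higher. Dcx, doublecortin, the usual marker of migrating neuroblasts, was at 17.9 to 29.9 CPM in wild-type and 13.8 to 27.3 CPM in W mice (log2 fold change -0.17, standard error 0.17, edgeR adjusted p = 0.459). In K mice against Fmn2-/- mice 3 of 17 were higher and 1 lower.

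Oligodendrocyte genes were called only lower, 8 of 16 falling (median -0.51), although only 1 member had groups that did not overlap. Opalin, a myelin protein of the paranode, was that clear case, at 16.2, 12.6, 19.2, 18.2 and 11.5 CPM in wild-type mice and from 4.10 through a median of 4.85 to 8.32 CPM in W mice (log2 fold change -1.45, standard error 0.20, edgeR adjusted p = 9.24e-05). Ermn fell from between 34.6 and 63.8 CPM to between 18.0 and 35.4 CPM (log2 fold change -0.79, adjusted p = 0.00206) and Fa2h, which makes myelin lipids, from between 11.9 and 25.3 CPM to between 7.95 and 15.3 CPM (-0.82, adjusted p = 0.00512). Mbp, myelin basic protein, was at 1414, 1049.7, 1332, 1947 and 1047 CPM and from 719 through a median of 928 to 1267 CPM (log2 fold change -0.49, standard error 0.17, edgeR adjusted p = 0.0351), short of the fold threshold. Wild-type mouse 4 had the highest level of Ermn, Fa2h and Mbp. The count of falling members depended on single mice, being 5 without wild-type mouse 1 or 3 or W mouse 1, 3 or 5, 4 (with 2 rising) without wild-type mouse 4, 11 without wild-type mouse 5, 12 without W mouse 7, and 5 without the mice with Xist reads. The summed levels, 2394 to 4678 CPM in wild-type and 1876 to 3325 CPM in W mice, overlapped.

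**Figure D4:**
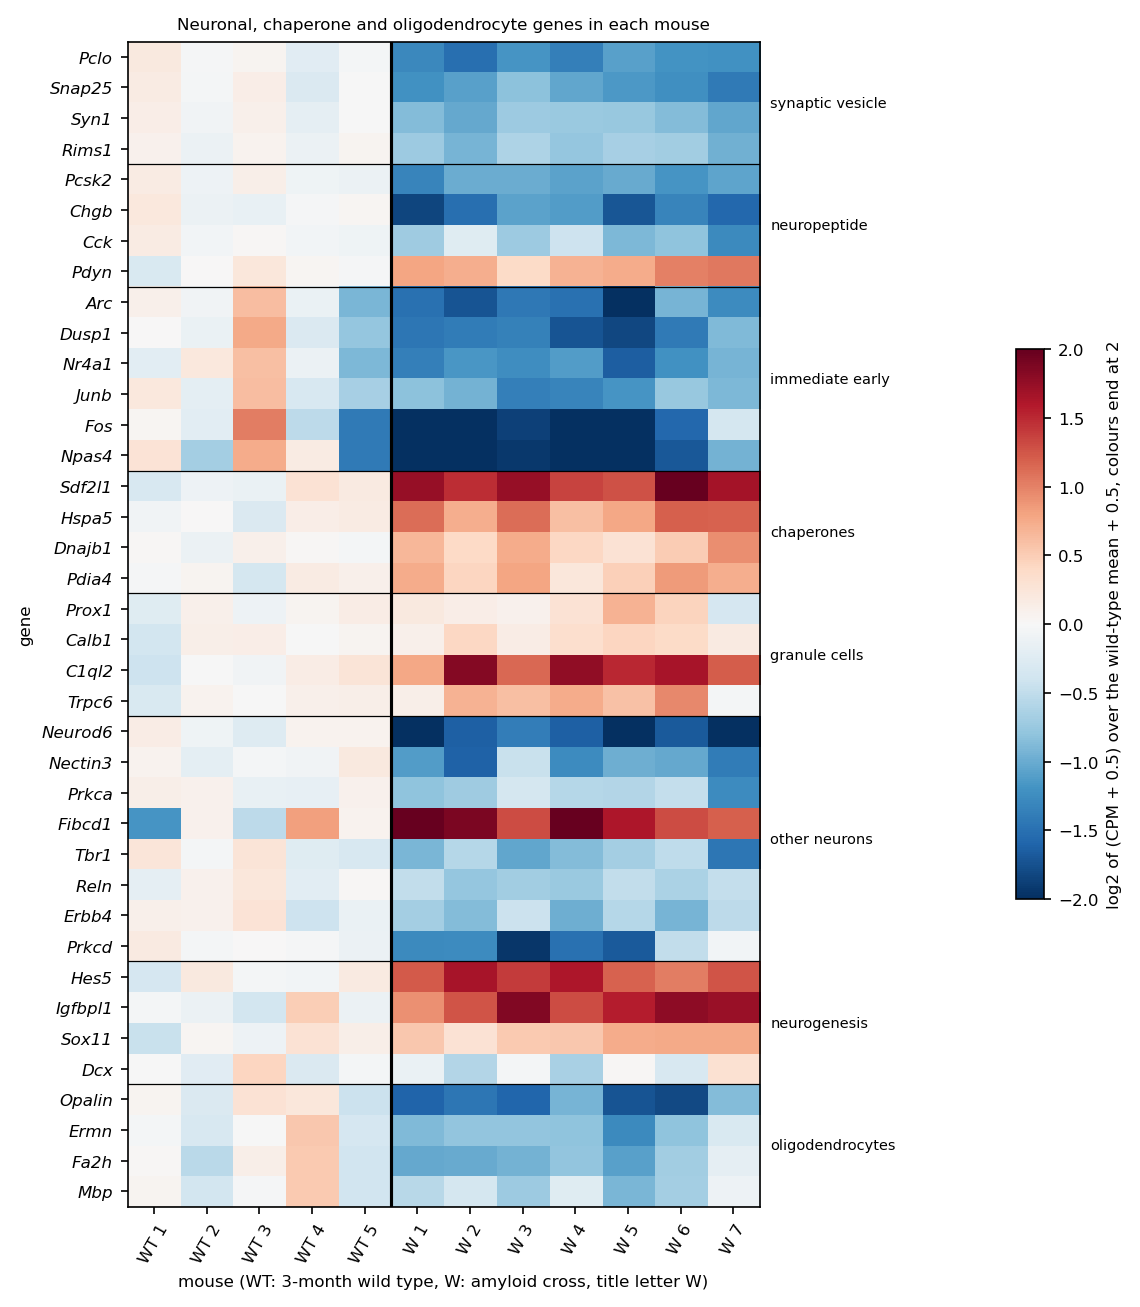
Heat map of neuronal, activity, chaperone and oligodendrocyte genes (rows) in each of the 5 wild-type and 7 W mice (columns); colour gives log2 of (CPM + 0.5) over (wild-type mean CPM + 0.5). Snap25, Pclo, Chgb and Neurod6 are lower in every W mouse, C1ql2, Hes5 and Hspa5 higher in every W mouse, and the immediate early genes are highest in wild-type mouse 3.

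Of the vessel, choroid plexus and blood markers few were called, at shares near the 16.7% of all genes: 1 of 16 endothelial genes was higher and 2 lower (median -0.13), 2 of 14 choroid plexus genes were higher and 1 lower (median 0.43) and 1 of 5 blood genes was higher (median 0.37). Single mice moved these medians: that of choroid plexus was 0.95 without wild-type mouse 4 and 0.28 without W mouse 6, and that of blood 0.15 without W mouse 6. Among the libraries of lane 5 they were 0.068 and -0.39. Mfsd2a, the lipid transporter of the blood-brain barrier, rose from between 27.6 and 37.9 CPM to between 36.4 and 59.8 CPM (log2 fold change 0.63, standard error 0.13, edgeR adjusted p = 0.00153; 0.48 without the mice with Xist reads). Flt1, a VEGF receptor, fell from between 50.02 and 59.8 CPM to between 25.5 and 54.1 CPM, with a median of 32.3 (log2 fold change -0.68, standard error 0.16, edgeR adjusted p = 0.00395), W mouse 6 lying within the wild-type range, and without W mouse 6, 6 endothelial genes were called lower. Ttr, the defining product of choroid plexus, was at 19.6, 16.1, 13.05, 32.6 and 3.52 CPM in wild-type and from 16.9 through a median of 43.2 to 83.0 CPM in W mice (log2 fold change 1.29, standard error 0.51, edgeR adjusted p = 0.0683); the adjusted p was 0.0339 without wild-type mouse 4 and 0.0482 without W mouse 7. The choroid plexus calls were 0 higher and 1 lower without wild-type mouse 1 or 2 and 5 higher without wild-type mouse 4. Hbb-bt, a haemoglobin chain that shares reads with its paralog Hbb-bs, was at 0.789 to 1.45 and 2.53 to 11.2 CPM (log2 fold change 2.39, standard error 0.40, edgeR adjusted p = 0.000492).

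Of genes of the clock, of the glucocorticoid response and of sterol synthesis 2 of 17, 3 of 16 and 1 of 22 were called, where 16.7% of all genes were. Cry1, a repressor of the circadian clock, rose by 0.62 (adjusted p = 0.000219 from edgeR; 0.49 without the mice with Xist reads) and was 1 of 2 clock genes called of 17. Of 16 glucocorticoid response genes Fkbp5, a co-chaperone of the receptor, rose from between 75.5 and 88.9 CPM to between 88.4 and 149 CPM (log2 fold change 0.56, standard error 0.10, edgeR adjusted p = 0.000658) and Tsc22d3 from between 50.7 and 65.4 CPM to between 70.4 and 140.2 CPM (log2 fold change 0.76, standard error 0.14, edgeR adjusted p = 0.000977). Sgk1, a kinase of the same response, fell by 0.55 (adjusted p = 0.00240), and without wild-type mouse 4, its highest mouse, the value was -0.45 and 5 genes of the list were called higher and none lower. Hmgcs1, an enzyme of cholesterol synthesis, fell from between 293 and 354 CPM to between 188 and 266 CPM (log2 fold change -0.65, standard error 0.09, edgeR adjusted p = 9.24e-05) and was the 1 called of 22.

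Most of the mitochondrially encoded genes tested fell, and a minority of the nuclear genes of the same complexes rose. Of the 13 mitochondrially encoded genes listed, mt-Co2, mt-Atp8, mt-Atp6, mt-Co3 and mt-Nd4l did not pass the filter on low counts and were not tested. Of the 8 tested 7 fell and 1 rose (median -0.95), with no overlap for any of the 8. Of 82 nuclear genes of the respiratory chain and ATP synthase 17 rose, none fell and 65 did not pass (median 0.21), where 9.31% of all genes rose. The summed level of the nuclear genes was 9899 to 10448 CPM in wild-type and 10036 to 14229 CPM in W mice, with overlap. Without the mice with Xist reads 24 of them were called higher (median 0.34). mt-Nd1, a subunit of complex I, fell from 12652, 14391, 13109, 11368 and 13313 CPM to between 5133 and 7067 CPM, with a median of 5936 (log2 fold change -1.11, standard error 0.084, edgeR adjusted p = 1.87e-06), and mt-Nd6, the subunit encoded on the other strand, from between 2268 and 3303 CPM to between 946 and 1513 CPM (log2 fold change -1.29, standard error 0.11, edgeR adjusted p = 4.15e-06). The member that rose, mt-Nd3, had 5 reads in all wild-type mice together and 126 in the W mice. Atp5g3, a subunit of the ATP synthase rotor, was at 161, 148, 157, 139.9 and 152 CPM in wild-type mice and ranged from 275 through a median of 299 to 375 CPM in W mice (log2 fold change 1.05, standard error 0.08, edgeR adjusted p = 1.87e-06). Cyc1, cytochrome c1, rose from between 110.1 and 120.2 CPM to between 157 and 199.7 CPM (log2 fold change 0.63, standard error 0.072, edgeR adjusted p = 2.43e-05; 0.48 after the length and GC correction).

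Cytosolic ribosomal proteins gave the largest number of rising genes among the lists. Of 78 tested 40 rose and 1 fell (median 0.51), with no overlap for 42. Rpl8 was at 161, 164, 164, 185 and 167 CPM in wild-type mice and ranged from 241 through a median of 298 to 334 CPM in W mice (log2 fold change 0.79, standard error 0.08, edgeR adjusted p = 1.02e-05), and Rpl18 rose from between 11.6 and 14.4 CPM to between 21.6 and 32.5 CPM (log2 fold change 1.09, standard error 0.1, edgeR adjusted p = 5.36e-06). Rps2 was at 9.62, 11.74, 10.9, 10.4 and 11.2 CPM and ranged from 24.6 through a median of 52.0 to 60.99 CPM (log2 fold change 2.18, standard error 0.18, edgeR adjusted p = 4.25e-06), W mouse 1 lying well below the other 6. Rps26 was the member that fell, from between 56.0 and 62.9 CPM to between 28.6 and 54.7 CPM (log2 fold change -0.64, adjusted p = 0.00104). Ribosomal protein genes have many near-identical copies and pseudogenes, so their counts are uncertain. After the length and GC correction 34 ribosomal genes rose and 1 fell (median 0.46), 13 nuclear respiratory genes rose and 1 fell (median 0.17), and the mitochondrially encoded counts were as before (median -0.83).

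The 8 largest rises among protein-coding genes of at least 5 CPM on average whose groups did not overlap were Ndufs5, Rpl34, Rpl3, Myoc, Slc7a3, Peg10, Rpl30 and Ngb. Myoc, the secreted protein myocilin, was at 3.47, 5.79, 1.88, 7.89 and 2.48 CPM in wild-type mice and ranged from 17.0 through a median of 18.7 to 43.2 CPM in W mice (log2 fold change 2.55, standard error 0.40, edgeR adjusted p = 0.000485). Slc7a3, a transporter of cationic amino acids, was at 2.37, 2.20, 2.75, 1.53 and 2.28 CPM and ranged from 6.07 through a median of 10.97 to 30.3 CPM (log2 fold change 2.51, standard error 0.38, edgeR adjusted p = 0.00026). Peg10, a paternally expressed gene derived from a retrotransposon, was at 15.1, 17.8, 19.6, 16.2 and 20.8 CPM in wild-type mice and at 87.0, 35.6, 67.1, 35.6, 60.6, 30.8 and 295 CPM in W mice 1 to 7 (log2 fold change 2.29, standard error 0.61, edgeR adjusted p = 0.0126), and Ngb, the oxygen-binding neuroglobin, at 2.58 to 4.39 CPM and from 5.05 through a median of 9.60 to 53.7 CPM (log2 fold change 2.18, standard error 0.60, edgeR adjusted p = 0.0136). W mouse 7 had the highest level of Slc7a3, Peg10 and Ngb, well above the next. Without the mice with Xist reads Peg10 stood at 1.29 (edgeR adjusted p = 0.000469) and Ngb at 1.33 (adjusted p = 0.00017), both still called. With sex as a term the fold changes were again 1.29 and 1.33, but the edgeR adjusted p was 0.131 for Peg10 and 0.134 for Ngb.

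The 8 deepest falls were in Trhde, Cd109, Prss35, Neurod6, Stbd1, Fmn1, A930033H14Rik and Hs6st3. Trhde, the enzyme that degrades thyrotropin-releasing hormone, was at 104.5, 88.8, 99.7, 98.1 and 100.03 CPM in wild-type mice and ranged from 16.5 through a median of 24.2 to 34.3 CPM in W mice (log2 fold change -2.04, standard error 0.14, edgeR adjusted p = 9.24e-07). Prss35, a serine protease-like protein, fell from 14.8, 9.59, 9.75, 10.9 and 12.8 CPM to between 1.86 and 5.01 CPM, with a median of 2.69 (log2 fold change -1.95, standard error 0.21, edgeR adjusted p = 1.54e-05), and Stbd1, which binds glycogen, from between 9.38 and 16.4 CPM to between 1.29 and 6.78 CPM (log2 fold change -1.75, standard error 0.32, edgeR adjusted p = 0.000897). Trhde, Prss35, Neurod6, Cd109, Stbd1 and Fmn1 were also called lower in K mice against Fmn2-/- mice, with log2 fold changes of -1.57, -1.71, -1.56, -1.72, -1.64 and -1.003, and none of the 6 was called in the cortex-titled libraries.

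The 2 further comparisons share no library with the first and set its genes in context. K mice, which are labelled APP and have little Fmn2, were compared with the 3-month Fmn2-/- mice, across the same 2 experiments (1840 of 17020 genes called, 10.8%). The cortex-titled APP and wild-type mice, 4 months old, share their titles (385 of 16733 called, 2.3%, of which 363 were higher). All 6 APP libraries were run on lane 7 and all 6 wild-type libraries on lane 5, so that genotype and lane cannot be told apart there. Of the 2727 genes called in W mice and tested in the K comparison 1042 (38.2%) were called in the same direction there, which is 60.5% of its 1721, and 3 in the opposite direction. Of 2581 genes tested in the cortex comparison 69 (2.67%) were called in the same direction there, 20.7% of its 334, and 14 in the opposite direction. The first 2 comparisons share their pair of experiments, and the third carries cortex titles.

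In all 3 comparisons 46 of the 15822 genes tested in each were called in the same direction, 45 higher and 1 lower. They are 1.66% of the 2767 genes called in W mice. The cortex comparison called 363 of its 385 genes higher, so most genes shared with it could only be higher. The largest fitted rises were in Trim12a, which had no reads in the wild-type mice, Trim30d (3.69), Ccl9 (2.74), Ccl6 (2.18), Fcrls (2.01), Spint1 (1.73), Mpeg1 (1.71) and Bst2 (1.55). Trim12a and Trim30d passed the filter on low counts only through the W mice, and were tested in 7 of the 12 fits without 1 mouse. Trim12a lost its call with no such filter (edgeR adjusted p = 0.0834) and with sex as a term (edgeR adjusted p = 0.0737). Among genes of at least 5 CPM on average whose groups did not overlap, the largest rises were those of Fcrls, Mpeg1, Cyba, Tyrobp, Ifi27, C1qb and Anxa3, and the falling gene was Nefh. Mpeg1, a pore-forming protein of macrophages, was at 6.94, 6.43, 6.82, 6.75 and 6.60 CPM in wild-type mice and ranged from 11.03 through a median of 17.7 to 38.8 CPM in W mice (log2 fold change 1.71, standard error 0.26, edgeR adjusted p = 0.000313), against 1.95 in K mice and 1.98 in cortex. Cyba, a subunit of the NADPH oxidase, rose by 1.22, 0.95 and 1.15 in the 3 comparisons, and Anxa3, an annexin, by 0.89, 1.06 and 0.93. Tyrobp rose by 1.202, 1.14 and 2.29 and Trem2 by 0.88, 0.84 and 1.96. C1qa, C1qb and C1qc rose by 0.52, 0.79 and 0.58 in K mice and by 1.33, 1.28 and 1.24 in cortex.

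Synaptic, regional and mitochondrial genes behaved differently across the 3 comparisons. Snap25 stood at -1.13, -0.86 and -0.15 on the log2 scale, Pclo at -1.26, -1.12 and -0.068, Neurod6 at -1.90, -1.56 and 0.037, and mt-Nd1 at -1.11, -0.76 and 0.04 in W mice, K mice and cortex. These 4 genes were called in both dentate gyrus comparisons, which run across experiments, and not in the cortex-titled libraries. Gfap, not called in W mice, was called in K mice at 1.08 and in cortex at 2.10. P2ry12 and Lpl fell in W mice and rose in cortex, by 0.53 and 0.79.

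**Figure D5:**
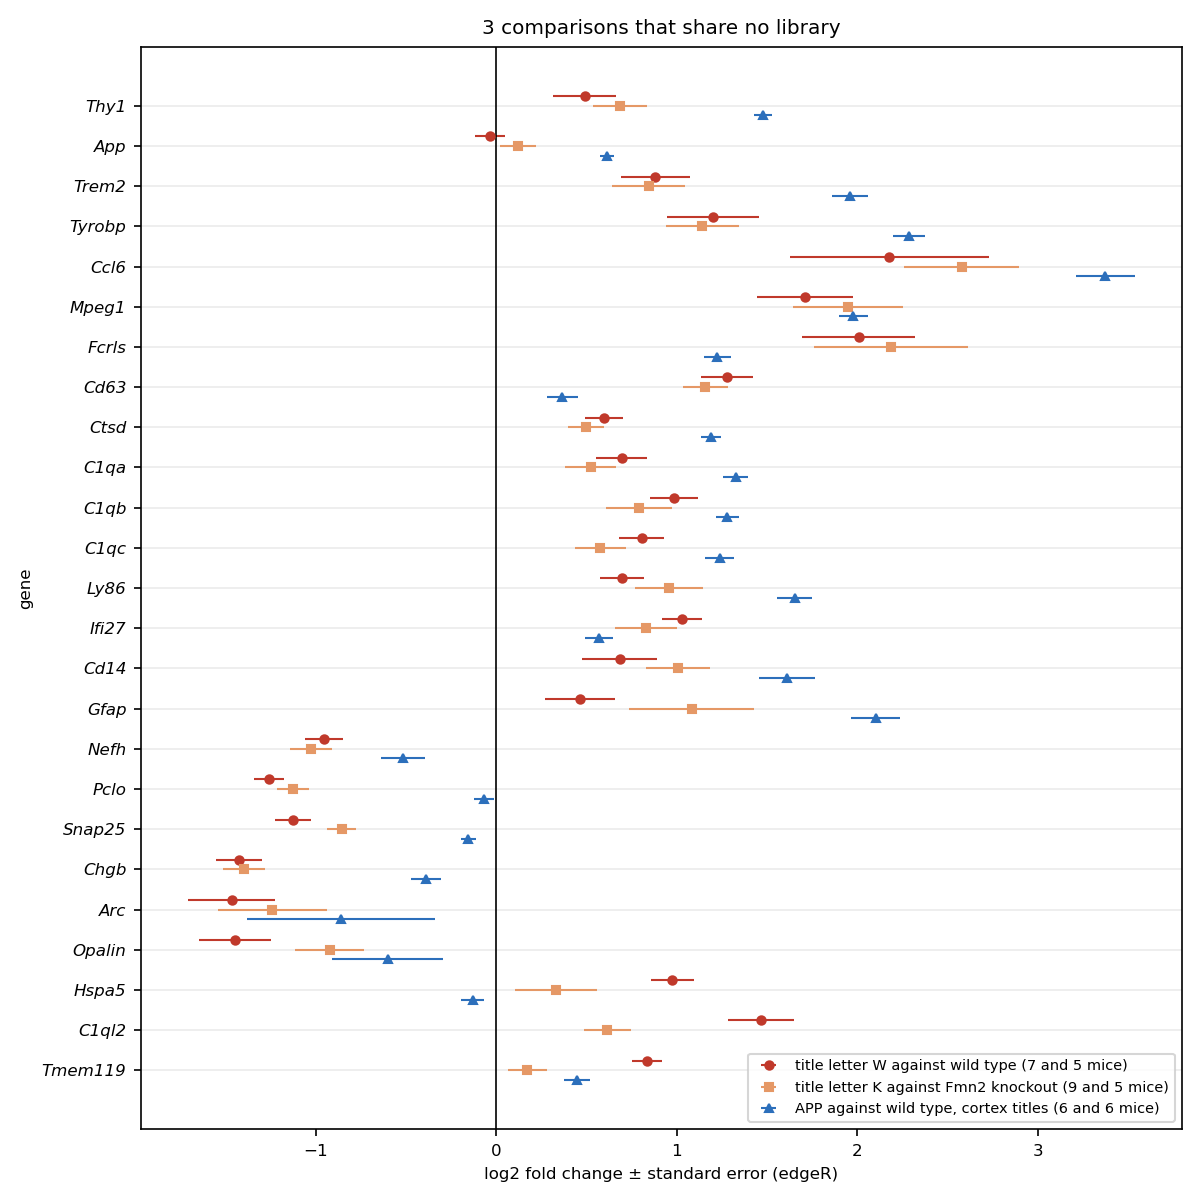
Log2 fold change ± standard error (x axis) of 25 genes (y axis) in 3 comparisons that share no library: W mice against wild type, K mice against Fmn2-/- mice, and cortex-titled APP against wild-type mice. Microglial genes such as Tyrobp and C1qb lie to the right in all 3, and Snap25 and Pclo lie to the left in both dentate gyrus comparisons and at -0.15 and -0.068 in the cortex-titled mice, in which C1ql2 was too low to be tested and has no point.

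Whether the difference between the 2 experiments depended on Fmn2 was tested by the interaction of both dentate gyrus contrasts, in which a shift common to all mice of 1 experiment cancels. Of 17599 genes 32 (0.182%) were called, 26 with a positive and 6 with a negative difference. Tmem119 rose by 0.84 in W mice and stood at 0.17 in K mice (difference 0.66, standard error 0.14, edgeR adjusted p = 0.0347). Mfsd2a stood at 0.63 and -0.20 (difference 0.83, adjusted p = 0.0217), and Rps2 at 2.18 and 1.005 (difference 1.17, adjusted p = 0.00500). For the other genes named here the difference was not called; it was 0.036 ± 0.29 (standard error) for Trem2, 0.19 ± 0.24 for C1qb and -0.27 ± 0.13 for Snap25. The count of 32 was 5 without wild-type mouse 3 and 49 without W mouse 1, so that single mice decided much of it. Over 30 alternative fits the difference kept its call in 16 for Tmem119, in 25 for Mfsd2a and in 29 for Rps2. With the replicate block none of the 3 was called (edgeR adjusted p = 0.145, 0.152 and 0.152), and without wild-type mouse 3 only Rps2 was. The block kept only mice whose number occurs in every group, so its fit also had fewer mice.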

How the data were processed

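RNA from dentate gyrus was sequenced with a TruSeq RNA kit. The authors aligned the reads to mm10 with STAR and counted them per gene with HTSeq; the deposited values are raw counts for 48709 Ensembl genes, without normalization. The strand setting and the annotation release are not given in the sources used here, so overlapping and antisense genes cannot be told apart. Groups follow the library titles. Genes were tested with edgeR 4.0.16 (R 4.3.3; TMM, filterByExpr, robust quasi-likelihood F test, Benjamini-Hochberg adjustment, called at adjusted p under 0.05 and absolute log2 fold change of at least 0.5), using the libraries of the groups compared. DESeq2 1.42.0 was an alternative, as were fits with other filters, scalings and mice. Fits without the mice with Xist reads with a sex term or of lane 5 alone were chosen after seeing the data.

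The members and gene lists were chosen with earlier results of these data known. Genes were named by a rule (up to 4 called members per list with the smallest p, the largest changes, and those called alike in 3 comparisons); the other genes named were chosen after their values were seen. Labels do not say whether mice shared litters, and p-values measure the spread between mice. The 2 runs of W mouse 7 differed by a chi-square per degree of freedom of 2.15 over 16453 genes, against 18.6 to 99.1 between W mice, and were counted as 1 mouse. Libraries of 8-month mice were not used, and some genes are not reported here. The fitting step was tested on simulated data.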

Additional observations from a re-analysis of the deposited data

Results flagged for a closer look

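A mouse stood apart from the others of its group in 22 of 258 groups of values checked for the named genes. The cut-off passes about 1 in 20 groups of independent, normally distributed values. The genes here share mice, and some were named after their values were seen, so that rate is no reference for the 22. W mouse 2 was highest for Trem2 (26.7 CPM), Cst7 (8.27), Itgax (2.87), Ccl6 (9.42), C1qb (81.0) and Cd14 (4.78 CPM), all of them genes expressed by microglia. Without it Trem2, Ccl6, C1qb and Cd14 were still called. W mouse 7 was highest for the astrocytic channel gene Kcnj10 (251 CPM), the immediate early genes Dusp1 (16.8), Fos (23.5) and Npas4 (9.29), the oligodendrocyte genes Ermn (35.4) and Fa2h (15.3), and for Slc7a3 (30.3), Peg10 (295) and Ngb (53.7 CPM). W mouse 6 was highest for Flt1 at 54.1 CPM, and W mouse 1 was lowest for Rps2 at 24.6 CPM.

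Among the wild-type mice, mouse 1 was lowest for Tyrobp (7.20 CPM), mouse 3 was highest for Kcnj10 (293 CPM) and Egr2 (15.7 CPM), and mouse 4 was lowest for Hmgcs1 (293 CPM) and highest for Rpl8 (185 CPM). The contrasts of both dentate gyrus comparisons differed by the interaction test for Tmem119 (difference 0.66), Mfsd2a (0.83) and Rps2 (1.17).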

How the results depend on the processing

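The 2767 genes called between W mice and wild type became 742 at an absolute log2 fold change of 1 and 6367 with no fold threshold. Other settings left the count between 2473 (length and GC correction) and 3160 (DESeq2), and leaving out each mouse gave 2364 (without wild-type mouse 1) to 2946 (without W mouse 7). Without the 4 mice with Xist reads it was 2947, 2512 with sex as a term and 2898 among the libraries of lane 5. Leaving out each mouse gave 1541 to 1996 genes for K mice against Fmn2-/- mice and 353 to 389 for the cortex-titled mice. The 32 genes of the interaction became 134 with DESeq2, 15 with no filter on low counts and 5 to 49 with single mice left out. Same-numbered mice correlated in their deviations with r from -0.0235 to 0.0992 in the main comparison, so the replicate numbers do not pair the mice. With the replicate block, which keeps only mice whose number occurs in every group, 2872, 1746, 374 and 2 genes were called in the 4 fits. Of 3006 values of 126 named genes, 2924 stayed called or stayed not called, 62 lost the call and 20 gained it, and 92 genes kept every call. No gene called in either fit changed sign. Genes not called could change sign, as App did from -0.034 to 0.15 after the length and GC correction. Libraries of 19554931 reads or more limit the values of genes under 1 CPM, such as Cst7, most. The cause of these shifts was not tested.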

Other observations

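Several genes were at or near 0 in all wild-type mice but had reads in most W mice and in both cortex-titled groups, whatever the genotype. Ndufs5, a subunit of complex I, was at 0.736, 1.34, 0.771, 1.10 and 0.972 CPM in the wild-type mice, at 1.76, 16.8, 23.6, 14.7, 18.5, 9.37 and 24.1 CPM in W mice 1 to 7, and at 14.9 to 17.6 CPM in the cortex-titled wild-type mice. In the 3-month Fmn2-/- mice, sequenced with the wild-type mice, it was at 0.821 to 1.55 CPM. Trim12a, a relative of the antiviral factor Trim5, had no reads in the wild-type mice, was at 1.999, 1.72, 0.652, 1.15, 0, 1.90 and 0 CPM in the W mice and at 1.65 to 2.47 CPM in the cortex-titled wild-type mice. Its relative Trim30d was at 0 to 0.0877 CPM in wild-type mice and 0.0402 to 1.42 CPM in W mice. The ribosomal genes Rpl34 and Rpl3, both with near-identical copies, were at 2.04 to 3.31 and 2.41 to 4.69 CPM in wild-type mice, at 4.12 to 47.8 and 6.89 to 49.0 CPM in W mice, and at 22.9 to 28.4 and 19.1 to 22.02 CPM in the cortex-titled wild-type mice. The cortex-titled wild-type mice differ from the 3-month wild-type mice in titled tissue, age and experiment, which cannot be told apart here.

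W mice 2 and 4 had the highest levels of Thy1 (1572 and 1651 CPM), Tyrobp (36.9 and 24.6 CPM), Mpeg1 (38.8 and 29.2 CPM) and Cst7 (8.27 and 1.17 CPM) of the 7, and both had Y-linked reads. The order was noticed in the data and not tested.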
